A study of Mus musculus with 10 samples.

Results

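Open chromatin of monocyte-dendritic cell progenitors (MDP) lacking the transcription factor IRF8 was compared with that of wild-type common dendritic cell progenitors (CDP), the next stage of the dendritic lineage. The comparison used 4 of the 10 libraries of the series, 2 of IRF8KO MDP and 2 of WT CDP. Their peaks on chromosomes 1 to 19 and X were merged at an overlap of at least 1 bp, which gave 87259 regions. A region was CDP-specific when both CDP libraries and neither IRF8KO library had a peak in it, and IRF8KO-specific in the reverse case. This made 19227 regions CDP-specific and 6698 IRF8KO-specific, and 34420 regions held a peak in all 4 libraries.

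All libraries came from bone marrow of C57BL/6 mice, were enriched on magnetic columns, sorted by flow cytometry and profiled by ATAC-seq, in which a transposase inserts adapters into open DNA. Both MDP groups shared 1 sort, Lin- Sca-1- IL-7R- cells with CD117+ and CD115+. CDP were Lin- Sca-1- IL-7R- cells with intermediate CD117 that carried CD115+ and CD135+. The IRF8KO cells are labelled IRF8-deficient, and no source used here names the allele. The 2 groups therefore differed in stage and in genotype, and the contributions of these to a difference between them cannot be told apart from the 4 libraries alone. The 2 wild-type MDP (WT MDP) libraries, which the classification did not use, share their sort with IRF8KO MDP and their genotype with CDP, and are given beside the results, as are 2 WT libraries each of long-term hematopoietic stem cells (LT-HSC) and lymphoid-primed multipotent progenitors (LMPP). The LMPP libraries are named by their titles, while their cell type label reads short-term stem cells, and every LMPP share below carries this uncertainty. Wild-type libraries are called biological duplicates, no animal is named for any library, and any spread between libraries may be partly technical.

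As background, IRF8 is a member of the interferon regulatory factor family. It binds DNA weakly by itself and strongly next to an ETS factor such as PU.1, on composite elements in which an ETS core and an interferon-response half-site adjoin. MDP give rise to monocytes and, through CDP, to conventional and plasmacytoid dendritic cells. Mice without IRF8 have few plasmacytoid and cDC1 dendritic cells and few monocytes, and accumulate granulocytes, and C/EBP factors are the main drivers of the granulocyte programme.

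Promoters of lineage genes were read first. RefSeq start sites (GRCm38.p6, the assembly of mm10) were at hand for 17273 of 21627 protein-coding genes. Of the members of 20 gene lists of blood lineages and pathways, 15 had a promoter window (250 bases before to 50 after the start) over a CDP-specific region and 7 over an IRF8KO-specific region, against 225 with a region found in all 4 libraries. The 250 bases before the start are shown for the 3 CDP-specific and the 4 IRF8KO-specific list members whose peaks stood nearest the top of their lists, since at these promoters the 2 groups had no common peak. Capitals mark matches on either strand to GGAANNGAA (ETS-IRF composite), GAAANNGAA (interferon response element core, which can overlap the first), GAGGAAGT (PU.1-like ETS) and TTGCNNAA (C/EBP), as letters only and not as known binding sites. The CDP-specific promoters were those of Tlr11, a Toll-like receptor that senses profilin (chr14:50357664-50357913, plus strand), Cd209a, a C-type lectin of dendritic cells also known as DC-SIGN (chr8:3748985-3749234, minus strand), and Klrk1, which encodes the activating receptor NKG2D (chr6:129623865-129624114, minus strand).
Tlr11: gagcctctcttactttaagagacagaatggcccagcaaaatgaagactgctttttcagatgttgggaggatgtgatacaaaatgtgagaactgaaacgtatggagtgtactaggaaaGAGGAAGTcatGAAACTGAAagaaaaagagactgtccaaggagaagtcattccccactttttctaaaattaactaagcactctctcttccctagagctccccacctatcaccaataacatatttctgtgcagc
Cd209a: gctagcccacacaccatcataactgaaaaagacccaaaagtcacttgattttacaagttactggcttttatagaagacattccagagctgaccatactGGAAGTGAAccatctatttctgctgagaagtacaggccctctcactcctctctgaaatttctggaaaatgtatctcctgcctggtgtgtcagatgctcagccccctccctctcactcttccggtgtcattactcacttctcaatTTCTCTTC
Klrk1: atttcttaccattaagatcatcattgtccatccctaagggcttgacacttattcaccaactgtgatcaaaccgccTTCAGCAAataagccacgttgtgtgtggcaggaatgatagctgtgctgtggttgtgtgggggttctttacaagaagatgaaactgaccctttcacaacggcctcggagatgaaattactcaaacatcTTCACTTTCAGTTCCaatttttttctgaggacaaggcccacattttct
The IRF8KO-specific promoters were those of Camp, the antimicrobial peptide cathelicidin of neutrophil granules (chr9:109849457-109849706, minus strand), Ms4a3, a membrane protein of granulocyte-monocyte progenitors (chr19:11640852-11641101, minus strand), Pparg, a nuclear receptor of lipid metabolism and alveolar macrophages (chr6:115421816-115422065, plus strand), and Lcn2, the iron-chelator-binding lipocalin of neutrophil granules (chr2:32387740-32387989, minus strand).
Camp: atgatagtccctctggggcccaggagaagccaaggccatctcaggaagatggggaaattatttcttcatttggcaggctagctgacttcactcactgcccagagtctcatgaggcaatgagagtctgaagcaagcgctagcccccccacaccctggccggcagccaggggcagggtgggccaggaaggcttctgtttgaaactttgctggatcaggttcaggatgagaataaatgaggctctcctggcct
Ms4a3: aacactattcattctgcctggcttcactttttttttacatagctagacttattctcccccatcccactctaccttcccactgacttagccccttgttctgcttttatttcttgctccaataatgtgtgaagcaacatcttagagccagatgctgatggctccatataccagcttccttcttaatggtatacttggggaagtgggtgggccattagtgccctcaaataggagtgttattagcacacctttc
Pparg: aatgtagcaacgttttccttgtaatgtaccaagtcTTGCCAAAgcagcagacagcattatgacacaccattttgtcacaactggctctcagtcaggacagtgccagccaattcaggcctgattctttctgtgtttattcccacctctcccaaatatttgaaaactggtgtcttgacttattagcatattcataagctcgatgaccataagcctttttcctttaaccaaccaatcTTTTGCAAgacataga
Lcn2: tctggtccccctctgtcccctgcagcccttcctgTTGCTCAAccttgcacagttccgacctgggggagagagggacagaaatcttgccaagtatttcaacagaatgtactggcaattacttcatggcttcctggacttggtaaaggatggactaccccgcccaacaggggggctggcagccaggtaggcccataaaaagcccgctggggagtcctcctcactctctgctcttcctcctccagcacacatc

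In these windows the Tlr11 promoter held a PU.1-like ETS match whose first base lay 133 bases before the start and an interferon response core at 122. Cd209a held 2 ETS-IRF composite matches, at 152 and 8 bases before the start. Klrk1 held a composite match at 42, an overlapping interferon response core at 48 and a C/EBP match at 175. Camp and Ms4a3 held none of the 4 motifs in the bases shown, Pparg held 2 C/EBP matches, at 215 and 16, and Lcn2 held 1, at 216. Next in rank, and not shown, were the CDP-specific promoters of Cd80 and Ifi205 and the IRF8KO-specific promoter of S100a9. Cd80 held none of the 4 motifs before its start, and Ifi205 held an interferon response core at 134. S100a9 held an ETS-IRF composite match at 193 and a C/EBP match at 236. Further down, the CDP-specific promoter of H2-Eb1 held none of the 4 and that of Spib a C/EBP match alone. The promoters shown thus do not stand for their class.

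The peaks at these promoters differed in what the WT MDP libraries showed. The region over the Tlr11 promoter ranked 8178 and 7525 in the CDP lists, where 1 is the top row, and held a peak in both WT MDP and both LMPP libraries. That of Cd209a ranked 13124 and 12582 in the CDP lists and 35620 and 27090 in the WT MDP lists, and was in neither LMPP nor LT-HSC library. The region of Klrk1 was also in both WT MDP libraries. All 3 promoters thus held peaks in WT MDP, the same sort as the IRF8KO cells in which no peak was called. Camp ranked 11254 and 10211 in the IRF8KO lists and 45837 and 38509 in the WT MDP lists and was also in both LT-HSC libraries, and Ms4a3 12646 and 14796 against 22133 and 21787. Lcn2 ranked 26650 and 25410 in the IRF8KO lists and 52618 and 55059 in the WT MDP lists. These 3 promoters therefore held a peak in WT MDP too and none in CDP, and since the lists differ in length their row numbers are given without an order between groups. The Pparg promoter had no peak in any of the 8 wild-type libraries. The gene as a whole leaned the other way. Of the 17 regions assigned to Pparg, 6 were CDP-specific, all in both WT MDP libraries, and 3 were IRF8KO-specific. A peak stood at 12 and 10 of the 17 in CDP, 10 and 12 in WT MDP, and 6 and 7 in IRF8KO MDP. Of all 15 CDP-specific promoters, those of H2-Eb1 (an MHC class II beta chain), Cd80 (a costimulatory ligand), Ifi205, Tlr1, Il13ra1, Itga2b, Tcf7 and Marco were also detected in both WT MDP libraries, that of Il18r1 in 1, and those of Spib (an ETS factor of plasmacytoid dendritic cells and B cells), Cd8a and Gp1bb in neither. The other 3 IRF8KO-specific promoters were those of S100a9, a calprotectin subunit of neutrophils, and Mcpt8, a basophil protease, both in neither WT MDP library, and Mitf, a transcription factor of mast cells and melanocytes, in 1. That of S100a9 was also in both LT-HSC libraries, that of Mcpt8 in both LMPP libraries, and that of Mitf in both libraries of either stage.

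The libraries compared differed in depth. CDP libraries held 10166833 and 7985428 tags with 69585 and 65472 peaks, and IRF8KO MDP libraries held 4790046 and 5313729 tags with 50711 and 54259 peaks. The mean difference was 15043.5 peaks, and in an exact two-sided permutation test p was 0.333, the smallest that 2 against 2 libraries can give. The WT MDP libraries, at 5394861 and 5328234 tags, were close to IRF8KO MDP in depth and held 62117 and 64493 peaks. Tags within peaks were 46.39% and 53.43% in CDP, 43.72% and 43.94% in IRF8KO MDP, and 51.25% and 53.74% in WT MDP. The part of depth in the counts below was not tested beyond cutting every list to the same number of rows. In sorted bulk cells fewer cells of a type and less open chromatin per cell cannot be told apart. By each library's own peaks, promoters of Flt3, Kit and Cx3cr1, receptors that mark these progenitors, and of Irf8 itself held a peak in all 4 libraries, so a peak at Irf8 is no check of the genotype. The promoters of Flt3, Kit and Cx3cr1 also held a peak in both LT-HSC and both LMPP libraries. Their peaks thus do not set MDP and CDP apart from the earlier stages. None of 5 T and NK cell markers and none of 4 erythroid markers with a start site had a promoter peak in any of the 4 libraries. Of 3 B cell markers, Ebf1 had 1 in IRF8KO replicate 1. Of 4 megakaryocyte markers, Pf4 and Itga2b had 1 in both CDP libraries, Gp1bb in CDP replicate 2 and Pf4 in IRF8KO replicate 2. The merged region over the Gp1bb promoter window held a peak in both CDP libraries. It is therefore CDP-specific, although the peak of CDP replicate 1 did not reach the window. Of 5 neutrophil markers, CDP libraries had promoter peaks at 3 (Elane, Ctsg, Ltf) and 2 (Ctsg, Ltf), and IRF8KO libraries at 4 (Elane, Mpo, Ctsg, Ltf) and 3 (Elane, Mpo, Ctsg). Both WT MDP libraries had them at 4 (Elane, Mpo, Ctsg, Ltf). The part of these marker peaks in the results was not tested.

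CDP-specific regions made up 22.0% of the 87259 merged regions, IRF8KO-specific regions 7.68% and regions found in all 4 libraries 39.4%. Regions shared by the replicates of a group outnumbered those shared between groups: the Jaccard index, shared over total regions, was 0.803 between the CDP replicates, 0.752 between the IRF8KO replicates and 0.49 to 0.505 across groups. With every list cut to its top 50711 rows, 72880 regions remained, of which 12029 (16.5%) were CDP-specific and 9770 (13.4%) IRF8KO-specific. The excess of CDP-specific over IRF8KO-specific regions was therefore smaller at equal length, and among the top 20000 rows of each list the counts were 4431 and 3959. At either cut a peak further down a list counted as absent. A region that is IRF8KO-specific there can thus hold a CDP peak in the full list, and the reverse. Without IRF8KO replicate 1, the shallowest library of the series, 11004 regions met the IRF8KO-specific definition, which then asked for a peak in 1 library.

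Both classes lay mostly away from gene starts and were weaker than shared regions. The median position of CDP-specific peaks was 63.5% of the way down their lists and that of IRF8KO-specific peaks 65.9%, against 35.0% for regions in all 4 libraries. Median widths were 670, 635 and 1237 bp. In the CDP-specific class 5.89% of regions had a gene end within 1 kb (95% Wilson interval 5.57 to 6.23) and in the IRF8KO-specific class 6.03% (5.49 to 6.63), against 32.6% of those in all 4 libraries. Promoter windows were overlapped by 1.78%, 1.75% and 25.7%. The 2 classes were thus alike in position, and either differed from the shared regions by far more than its counting interval. Shared regions are by definition merged from peaks of all 4 lists and had to be called in each. The part of this definition in their width, rank and overlap with genes was not tested. Wilson intervals here cover counting error over regions alone, and neighbouring regions are not independent.

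The WT MDP libraries split both classes. Of the CDP-specific regions, 8496 (44.2%, interval 43.5 to 44.9) held a peak in both WT MDP libraries, which is 9.74% of all merged regions, 4033 (21.0%) in 1 and 6698 (34.8%) in neither. Of the IRF8KO-specific regions, 2560 (38.2%, 37.1 to 39.4) held a peak in both WT MDP libraries, 1520 (22.7%) in 1 and 2618 (39.1%, 37.9 to 40.3) in neither, the last being 3.0% of all merged regions. The WT MDP libraries were thus on the side of CDP at 8496 regions and on the side of IRF8KO MDP at 2560, and at 6698 and 2618 regions they lacked the peak that CDP or IRF8KO MDP had. At equal length, 5381 CDP-specific regions (7.38% of all) were in both WT MDP lists, or 44.7% of the class. The share of IRF8KO-specific regions in both WT MDP lists was then 33.1%, and 4370 (6.00% of all, 44.7% of the class) were in neither.

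**Figure D1:**
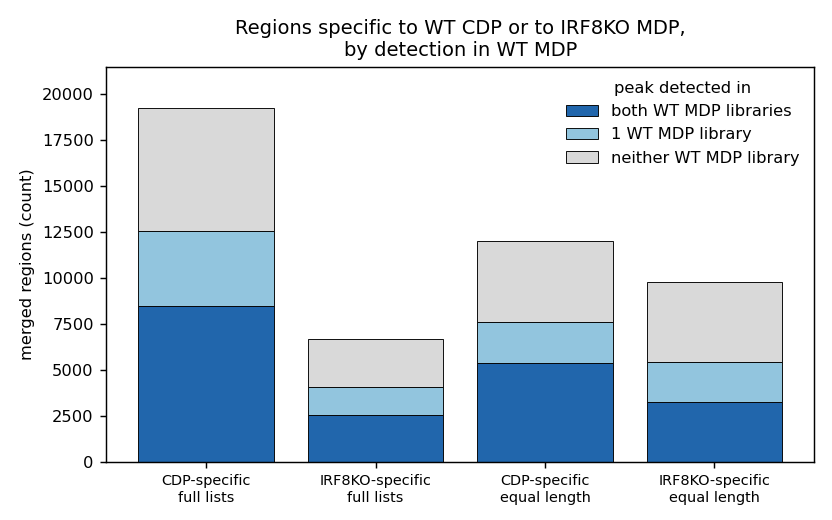
Number of merged regions (y axis) in the CDP-specific and IRF8KO-specific classes with full lists and with lists cut to equal length, split by how many of the 2 WT MDP libraries had a peak. The CDP-specific bar falls from 19227 to 12029 regions and the IRF8KO-specific bar grows from 6698 to 9770 when the lists are made equally long. A peak below the cut counts as absent.

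The earlier wild-type stages also separated the classes. In LT-HSC replicates 1 and 2, 5.13% and 13.8% of CDP-specific regions held a peak, against 11.4% and 22.0% of IRF8KO-specific regions. At equal length the LT-HSC shares were 5.48% and 14.0% against 15.9% and 30.5%. IRF8KO-specific regions were thus detected in stem cells more often than CDP-specific regions in either LT-HSC replicate and at either list length, although LT-HSC replicate 1, with 31314 peaks and 19.32% of tags within them, stood apart from all other libraries. At equal length the IRF8KO-specific class also takes in regions whose CDP peak lay below the cut, and their part in these shares was not tested. In the LMPP replicates, the shares were 28.8% and 29.4% for the CDP-specific class and 30.3% and 30.9% for the IRF8KO-specific class, a gap that widened at equal length to 24.0% and 24.6% against 31.9% and 31.3%. In WT MDP the order turned: 54.0% and 55.4% of CDP-specific regions and 46.9% and 52.3% of IRF8KO-specific regions held a peak. With full lists, 5278 CDP-specific regions (27.5%) and 2014 IRF8KO-specific regions (30.1%) had no peak in any of the 6 other libraries. Regions held in both libraries of WT MDP, LMPP and LT-HSC alike made up 2.83% of the CDP-specific class (2.6 to 3.07) and 6.4% of the IRF8KO-specific class (5.84 to 7.02).

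**Figure D2:**
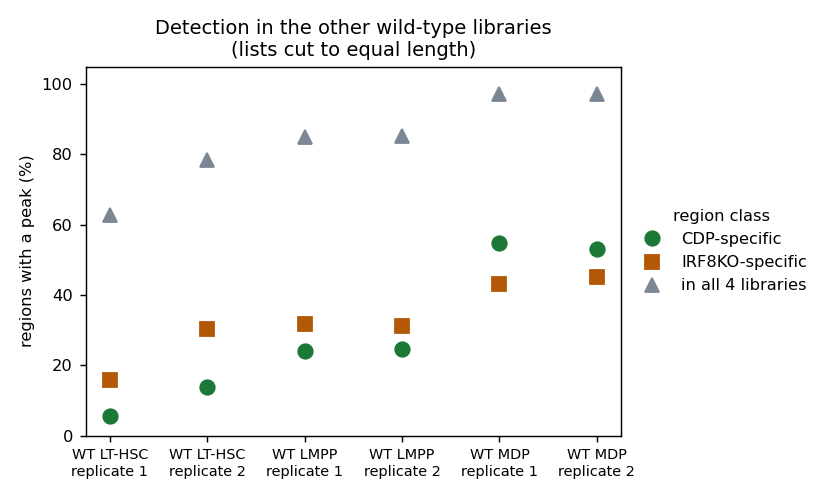
Share of regions of each class with a peak (y axis, percent) in each of the 6 wild-type libraries that the classification did not use, with lists cut to equal length. IRF8KO-specific regions lie above CDP-specific regions in the 4 LT-HSC and LMPP libraries (31.9% against 24.0% in LMPP replicate 1) and below them in both WT MDP libraries (43.3% against 54.9% in replicate 1). A peak below the cut counts as absent.

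Each region was given to the protein-coding gene whose span held its centre, or else to the nearest span within 100 kb. Of 16308 genes with a region, 6678 had more CDP-specific than IRF8KO-specific regions, 1872 the reverse and 7758 as many of either. At equal list length these counts were 4271, 3412 and 8131 of 15814 genes, so the excess on the CDP side was much smaller. At least 5 CDP-specific and no IRF8KO-specific region stood at 363 genes with full lists, and at least 5 IRF8KO-specific and no CDP-specific region at 14. The net number below is CDP-specific minus IRF8KO-specific regions of a gene, and genes with many regions can reach larger net numbers. Peak numbers given for a gene count its merged regions with a peak in the library, so several peaks in the same region count once. Peaks of WT MDP, LMPP and LT-HSC outside the merged regions are not counted.

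The genes with the most net CDP-specific regions were large genes with regions spread along them. Foxp1, a forkhead transcription factor of B cell and monocyte development, had 27 CDP-specific and 8 IRF8KO-specific of 83 regions. Its peaks numbered 68 and 60 in CDP, 48 and 53 in WT MDP, and 37 and 42 in IRF8KO MDP. Camk1d, a calmodulin-dependent kinase, had 18 CDP-specific and no IRF8KO-specific of 31 regions, with 31 and 25 peaks in CDP, 16 and 16 in WT MDP, and 6 and 7 in IRF8KO MDP. Pard3, a cell polarity scaffold, had 15 of 25 regions CDP-specific, with 22 and 23 peaks in CDP, 13 and 15 in WT MDP, and 5 and 5 in IRF8KO MDP. These genes were picked for the difference between CDP and IRF8KO MDP, so the distance between those groups, with WT MDP between them, is a description. Bach2, a repressor that acts in lymphoid cells, had 16 CDP-specific and 2 IRF8KO-specific of 56 regions, with 48 and 43, 36 and 35, and 26 and 27 peaks in the same order of groups. The net number was 17 at Nedd4l (a ubiquitin ligase), 16 at Ank2 (an ankyrin), 15 at Lpp (a LIM-domain adhesion protein), 14 at Hivep3 (a zinc finger factor), and 13 at both Ust (a sulfotransferase) and Rapgef5 (a Rap exchange factor). At equal list length all 10 kept a positive net number, from 4 at Hivep3 to 11 at Camk1d and Ank2.

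Fewer regions made up the IRF8KO-specific side. Ednra, the type A endothelin receptor (gene 13617, chr8:77663029-77724452), had 10 regions, of which 9 were IRF8KO-specific. IRF8KO MDP held 10 and 9 peaks there, CDP 0 and 0, WT MDP 0 and 2, LMPP 2 and 3, and LT-HSC 1 and 3. Of the 9 regions, 7 had no peak in either WT MDP library. Ednra thus had no more than 2 peaks in any CDP or WT MDP library and at least 9 in either IRF8KO library. The best ranked lay at -17.5 kb from the start (chr8:77740989-77742907, rows 10773 and 10193) and over the start itself (chr8:77723430-77724717, rows 15067 and 14034), the latter also in both LT-HSC libraries. Slc24a2, a cation exchanger, had 5 of 7 regions IRF8KO-specific, with 6 and 6 peaks in IRF8KO MDP, 1 and 3 in WT MDP, and none in CDP. Dhrs9, a short-chain dehydrogenase, had peaks at all 8 of its regions in both IRF8KO libraries, at 5 and 4 in WT MDP, and at 3 and 3 in CDP.

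Tcerg1l had 9 IRF8KO-specific and 1 CDP-specific of 17 regions, with 13 and 15 peaks in IRF8KO MDP, 10 and 12 in WT MDP, and 3 and 2 in CDP. Of its 9 IRF8KO-specific regions, 5 were in both WT MDP libraries and 1 in neither. Syne1, a nuclear envelope spectrin-repeat protein, and Cped1 each had a net number of -8, Mapk4, an atypical MAP kinase, -7, Tshz2, a teashirt zinc finger factor, and Retreg1, a receptor for degradation of endoplasmic reticulum, -6 each. Of their IRF8KO-specific regions, those in neither WT MDP library numbered 4 of 10 at Syne1, 3 of 8 at Cped1, 3 of 7 at Mapk4, 5 of 7 at Tshz2 and 4 of 8 at Retreg1, against 3, 2, 2, 2 and 4 in both. At equal list length all 10 kept a negative net number, from -5 at Slc24a2 and Dhrs9 to -11 at Tcerg1l.

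**Figure D3:**
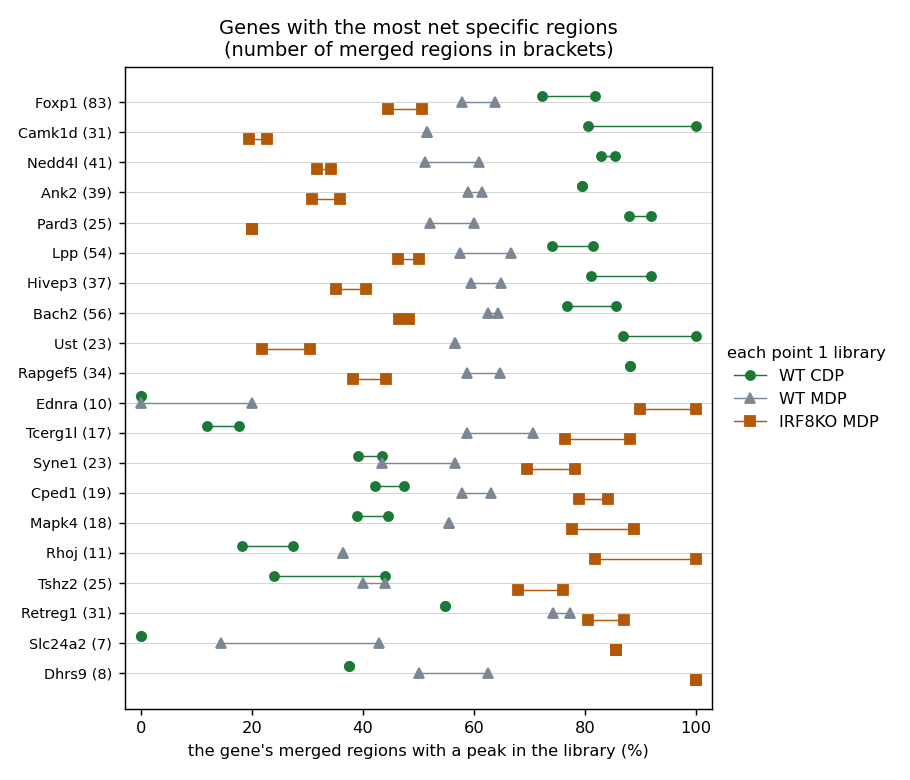
For the 10 genes with the most net CDP-specific regions (top) and the 10 with the most net IRF8KO-specific regions (bottom), the share of the gene's merged regions with a peak (x axis, percent) in each library, 2 points a group joined by a line. The genes were picked for the distance between CDP and IRF8KO MDP. At Ednra, WT MDP has 0 and 2 peaks in 10 regions, against 10 and 9 in IRF8KO MDP and 0 and 0 in CDP.

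The 5 best ranked regions of either class show where a high peak had no counterpart in the other group. The top CDP-specific region (chr2:98662037-98663083) had no gene within 100 kb, ranked 539 and 365 in CDP and was also in the WT MDP, LMPP and 1 of the LT-HSC lists, with an IRF8KO peak 1.78 kb away. As background, this stretch of chromosome 2 is known for artefactually high read density in many mm10 data sets, and its part in the result was not tested. Next came a region inside Adam19 (chr11:46125890-46128987), centred 0.466 kb from the nearest start of this membrane metalloprotease gene, at rows 774 and 764 in CDP and 6982 and 6067 in WT MDP. Of the 11 regions of Adam19 as a whole, 8 were CDP-specific, and 10 and 9 held a peak in CDP, 7 and 6 in WT MDP, and 1 and 0 in IRF8KO MDP. Adgrg6, an adhesion G protein-coupled receptor, held the third region (chr10:14474421-14476724, rows 773 and 891), which ranked 2316 and 2250 in WT MDP and had no IRF8KO peak within 24.0 kb. Zfp536, a zinc finger repressor (chr7:37437426-37440249, rows 1002 and 1143), and Impg1 (chr9:80341303-80343154, rows 1931 and 1305) followed, the last with an IRF8KO peak 1.11 kb away. All 5 were thus also found in both WT MDP libraries.

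The best ranked IRF8KO-specific region lay in Gramd1b, a sterol transport protein (chr9:40321008-40322211), at rows 1517 and 1798 in IRF8KO MDP and 380 and 1137 in LMPP, and was in all 6 other wild-type libraries with a CDP peak 1.94 kb away. The second (chr9:91586315-91588577) had no gene within 100 kb and no CDP peak within 221.0 kb, at rows 3639 and 2574 in IRF8KO MDP against 48254 and 41677 in WT MDP. Tbc1d30, a Rab GTPase-activating protein, held the third (chr10:121289565-121290708). The fourth (chr1:80025704-80026922) again had no gene in reach, and the fifth lay 3.77 kb from Gm42427 (chr5:44146443-44147779). All 5 were detected in both WT MDP libraries, and 2 of them in all 6 wild-type libraries other than CDP.

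At the gene itself, Irf8 (gene 15900, chr8:120736358-120756694) had 31 regions, of which 8 were CDP-specific, 3 IRF8KO-specific and 7 in all 4 libraries. Its peaks numbered 26 and 23 in CDP, 18 and 16 in WT MDP, 13 and 16 in IRF8KO MDP, 8 and 9 in LMPP, and 1 and 6 in LT-HSC, so that WT MDP and IRF8KO MDP overlapped in number. The 8 CDP-specific regions lay at -28.2, -21.0, -16.3, 35.9, 38.9, 40.7, 45.6 and 74.1 kb from the start, all outside the gene, and 3 of them (at -16.3, 38.9 and 45.6 kb) were in both WT MDP libraries. Of the IRF8KO-specific regions, those at 1.1 and 2.7 kb lay inside the gene and the third at 50.6 kb after the start. With genes assigned within 20 kb alone, the net number of Irf8 was 0. Over the 11 genes of the interferon regulatory factor list, 27 regions of 122 (22.1%) were CDP-specific and 7 (5.74%) IRF8KO-specific. Irf2bp2, an IRF2-binding corepressor, had 7 CDP-specific and no IRF8KO-specific of 25 regions, with 23 and 23 peaks in CDP, 20 and 19 in WT MDP, and 15 and 17 in IRF8KO MDP.

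Conventional dendritic cell (cDC) genes lay on the CDP side at either list length. Over all 81266 regions with a gene, 21.5% were CDP-specific and 7.44% IRF8KO-specific, and the median net number per gene was 0.0. At 30 cDC genes, 80 of 273 regions (29.3%) were CDP-specific and 8 (2.93%) IRF8KO-specific, 25 members had a positive, 2 a negative and 3 a zero net number, and the median was 2.0. At equal list length the cDC shares were 23.8% and 6.49%, beside 16.0% and 13.1% over all regions with a gene. The net share of the cDC list, CDP-specific minus IRF8KO-specific, was 26.4% with full lists, next to 26.9% for B cell genes, and 17.3% at equal length, the highest of the 20 lists. A peak stood at 87.2% and 85.0% of the cDC regions in CDP, 67.0% and 70.0% in WT MDP, and 48.4% and 56.8% in IRF8KO MDP, against 79.4% and 74.1%, 66.5% and 68.4%, and 56.9% and 61.2% of all regions with a gene. Peaks of WT MDP outside the merged regions are not counted in these shares. The CDP and IRF8KO values were thus further apart at cDC genes than over all genes, while the WT MDP values were near those of all genes. Whether the list differs from other genes was not tested.

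Among the cDC genes, Cadm1, an adhesion molecule of cDC1 cells, had 9 CDP-specific and 1 IRF8KO-specific of 21 regions, with 19 and 17 peaks in CDP, 8 and 11 in WT MDP, and 8 and 9 in IRF8KO MDP. WT MDP and IRF8KO MDP overlapped there. Btla, an inhibitory receptor, had 6 CDP-specific of 11 regions, with 11 and 10 peaks in CDP, 7 and 7 in WT MDP, and 3 and 4 in IRF8KO MDP. Bcl6, a repressor of cDC1 and germinal centre cells, had 6 of 17 CDP-specific, with 13 and 14, 9 and 9, and 5 and 6 peaks in the same order, and its net of 6 was 1 with genes within 20 kb. Zbtb46, a factor found in cDC and their committed precursors, had 3 of 11 CDP-specific and all 3 were in both WT MDP libraries. The region at -12.2 kb from the nearest Zbtb46 start (chr2:181435777-181437317) ranked 3156 and 2582 in CDP. Id2, an inhibitor of E proteins needed for cDC1, had 6 CDP-specific regions and 1 IRF8KO-specific region of 18, with 5 of the 6 in neither WT MDP library, and its net of 5 was 1 at equal length and 0 with genes within 20 kb. Batf3, a factor of cDC1 cells, had 2 CDP-specific regions of 10, with 9 and 10 peaks in CDP, 10 and 8 in WT MDP, and 7 and 8 in IRF8KO MDP, which overlapped between the MDP groups. Flt3, the receptor that drives dendritic cell output, had 4 CDP-specific and 1 IRF8KO-specific of 18 regions, and none of the 4 was in both WT MDP libraries.

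Plasmacytoid dendritic cell (pDC) genes had shares near those of all genes. Of their 224 regions, 21.9% were CDP-specific and 7.14% IRF8KO-specific, and at equal length 16.2% and 15.1%. Cd7, a surface glycoprotein of lymphoid and dendritic precursors, stood out within the list: all 5 of its regions were CDP-specific, with peaks at 5 and 5 in CDP, 4 and 2 in WT MDP, and none in IRF8KO MDP. Bcl11a, a zinc finger factor of pDC and B cells, had 10 CDP-specific and 4 IRF8KO-specific of 35 regions, and Tcf4, the E protein that maintains pDC, 7 and 2 of 40.

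Antigen presentation genes leaned to CDP. Of 129 regions at MHC class II and antigen processing genes, 36 (27.9%) were CDP-specific and 7 (5.43%) IRF8KO-specific, and at equal length 23.3% and 7.76%. The list's leading member was Ciita, the coactivator that switches on MHC class II genes (gene 12265, chr16:10480014-10531064), with 8 CDP-specific of 11 regions. Of these 11 regions, 9 and 10 held a peak in CDP, 4 and 6 in WT MDP, 0 and 2 in IRF8KO MDP, 4 and 5 in LMPP, and 1 and 3 in LT-HSC. IRF8KO replicate 1 thus had no peak at Ciita at all. The strongest Ciita region (chr16:10486839-10490064, inside the gene, rows 6673 and 5072 in CDP) was in both WT MDP and both LMPP libraries. Of the other 7, those at chr16:10475798-10476574 and chr16:10479568-10480497 were also in both WT MDP libraries, and 4 were in neither. Cd40, a costimulatory receptor, had 3 of 4 regions CDP-specific, with 4 and 4 peaks in CDP, 3 and 3 in WT MDP, and 1 and 0 in IRF8KO MDP. Cd80 had 2 of 5, with 5 and 5, 4 and 4, and 3 and 3 peaks. In the H2-Eb1 promoter the CDP-specific region (chr17:34304621-34306776) was also in both LMPP libraries and 1 LT-HSC library.

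**Figure D4:**
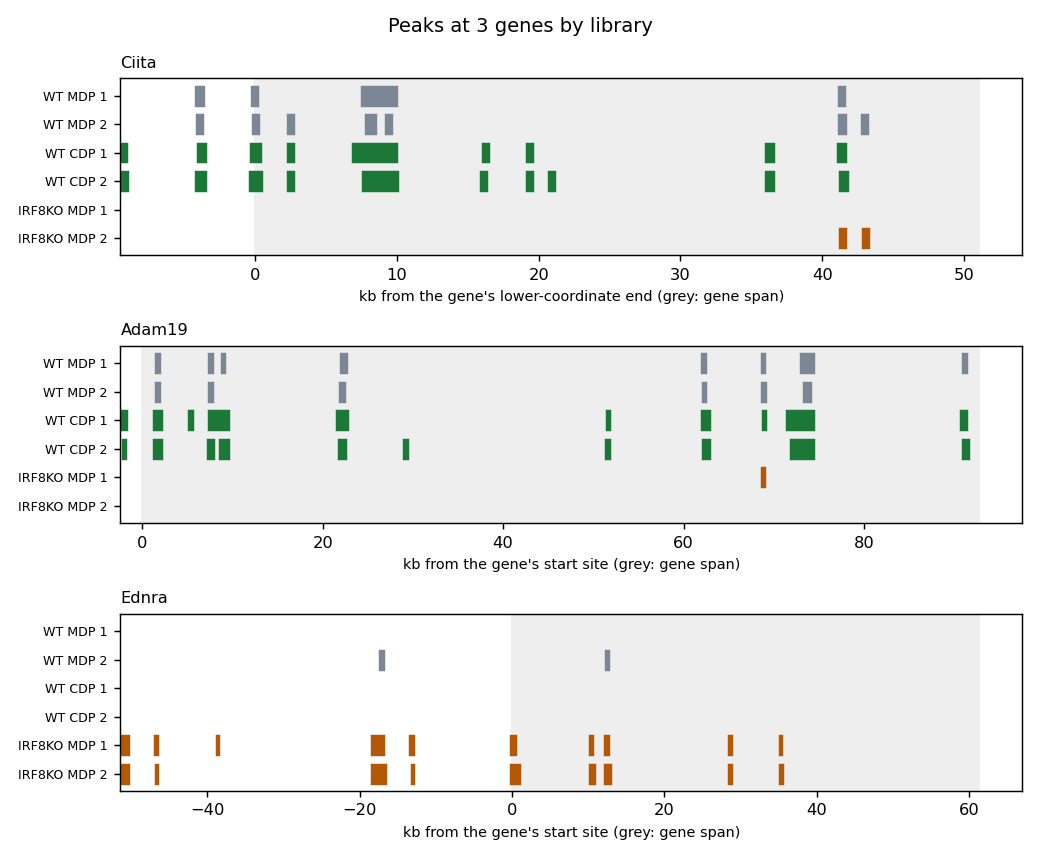
Peaks (bars) of the WT MDP, WT CDP and IRF8KO MDP libraries along Ciita, Adam19 and Ednra, with the distance in kb from the gene's lower-coordinate end or RefSeq start on the x axis and the gene span in grey. IRF8KO MDP libraries hold 0 and 2 peaks at Ciita and 1 and 0 at Adam19, and 10 and 9 at Ednra, where CDP libraries hold 0 and 0.

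Monocyte and macrophage genes were also on the CDP side. Of their 248 regions, 64 (25.8%) were CDP-specific and 11 (4.44%) IRF8KO-specific, with 21 members positive, 2 negative and 7 at zero, and at equal length 21.4% and 7.62%. F13a1, a coagulation factor subunit of monocytes, had 7 CDP-specific of 20 regions, with 18 and 16 peaks in CDP, 11 and 10 in WT MDP, and 8 and 8 in IRF8KO MDP. Cd163, a scavenger receptor, had 4 of 13, with 9 and 11, 9 and 7, and 5 and 3 peaks. Csf1r, the receptor sorted on as CD115, had 4 of 8, with 7 and 8 peaks in CDP, 3 and 5 in WT MDP, and 3 and 3 in IRF8KO MDP, and none of the 4 was in both WT MDP libraries. Klf4, a factor of monocytes and cDC2, had 3 CDP-specific and 1 IRF8KO-specific of 12.

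Neutrophil and granule genes had more IRF8KO-specific than CDP-specific regions once the lists were equally long. With full lists 19 of their 102 regions (18.6%) were CDP-specific and 16 (15.7%) IRF8KO-specific, a net of 3, and at equal length 10 of 88 (11.4%) and 21 (23.9%), a net of -11. Without IRF8KO replicate 1 the net was -5. At equal length a CDP peak below the cut counted as absent, so the 21 regions need not lack a CDP peak in the full lists. Elane, with a peak in CDP replicate 1, had no IRF8KO-specific region with full lists and 1 at equal length. Peaks stood at 64.7% and 62.7% of the list's regions in CDP, 67.6% and 65.7% in WT MDP, and 59.8% and 67.6% in IRF8KO MDP, so that the groups overlapped with full lists. At equal length the values were 54.5% and 55.7%, 65.9% and 62.5%, and 69.3% and 73.9%, and did not overlap. Over all regions with a gene they were then 69.5% and 68.9%, 65.7% and 65.6%, and 67.9% and 68.5%, and did not overlap either. Lack of overlap by itself was thus not particular to this list, but the order of the groups differed. CDP values were below IRF8KO MDP values at this list and above them over all regions with a gene. Of the 16 IRF8KO-specific regions, 10 were in both WT MDP libraries and 3 in neither, whereas over all genes 2287 of 6046 were in both and 2378 in neither. S100a9 had 3 IRF8KO-specific and no CDP-specific of 6 regions, with 6 and 6 peaks in IRF8KO MDP, 3 and 4 in WT MDP, and 3 and 2 in CDP. Camp had a single region, with a peak in both IRF8KO and both WT MDP libraries. Lcn2 had 2 regions, with 1 and 2 peaks in IRF8KO MDP, 1 and 1 in WT MDP, and none in CDP. Chil3, a chitinase-like protein of granulocyte and monocyte precursors that is named after its values were seen, had peaks at all 3 of its regions in both IRF8KO and both WT MDP libraries and at none in CDP. Other members had net CDP-specific regions. Csf3r, the G-CSF receptor, had 4 CDP-specific and 1 IRF8KO-specific of 9 regions, with 7 and 8 peaks in CDP, 6 and 5 in WT MDP, and 4 and 4 in IRF8KO MDP. Ltf, the granule protein lactoferrin, had 2 of 7, both in both WT MDP libraries, and Cd177, a neutrophil surface protein, 3 and 1 of 6 with a net of 2 that was 0 at equal length.

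Myeloid transcription factor genes were the other list whose net changed sign with list length. Of 643 regions, 123 (19.1%) were CDP-specific and 49 (7.62%) IRF8KO-specific, and at equal length 76 (14.0%) and 80 (14.8%) of 542. Spi1, which encodes PU.1, had no CDP-specific and 2 IRF8KO-specific of 7 regions, with 7 and 7 peaks in IRF8KO MDP, 6 and 6 in WT MDP, and 5 and 5 in CDP. Both lay inside the gene span (chr2:91088900-91089748 and chr2:91113133-91113806), and the first was in both WT MDP libraries. Cebpb, a C/EBP factor of emergency granulopoiesis and monocytes, had 3 IRF8KO-specific and no CDP-specific of 21 regions, 24.5, 26.3 and 53.8 kb after the start, with 18 and 19, 16 and 15, and 16 and 16 peaks in IRF8KO MDP, WT MDP and CDP, and with assignment within 20 kb its net was 0. Cebpa, the C/EBP factor that granulocyte-monocyte progenitors need, had 1 of either class among 10 regions. Gata2, a factor of stem and mast cells, had 1 IRF8KO-specific region of 7, with 5 and 5, 5 and 5, and 6 and 4 peaks in the same order, which overlapped. Etv6, an ETS repressor, had 9 CDP-specific and no IRF8KO-specific of 47 regions, and Ikzf1, which encodes Ikaros, 9 and 1 of 26. Ets1 and Myc were also named after their values were seen. Ets1, an ETS activator of lymphoid cells, had 7 IRF8KO-specific and 2 CDP-specific of 20 regions, and Myc, the growth regulator, 8 CDP-specific and none IRF8KO-specific of 16.

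B cell and T and NK cell genes had the highest CDP-specific shares of the 20 lists with full lists. At B cell genes, 26 of 78 regions (33.3%) were CDP-specific and 5 (6.41%) IRF8KO-specific, with 26.8% and 11.3% at equal length. Bank1, a B cell scaffold protein, had 6 CDP-specific of 17 regions, Blnk, a B cell adaptor, 4 of 10, and Pax5, the B lineage commitment factor, 4 of 6. Pax5 held 6 and 5 peaks in CDP, 3 and 3 in WT MDP, and 1 and 1 in IRF8KO MDP. At T and NK cell genes the shares were 30.5% and 8.54%, or 23.4% and 14.1% at equal length. Il2rb, the beta chain of the interleukin-2 and interleukin-15 receptors, had peaks at all 3 of its regions in both CDP libraries and at none in the MDP libraries of either genotype. Cd4 had peaks at both of its regions in both CDP and both WT MDP libraries and at none in IRF8KO MDP. Gata3, a factor of T cells and innate lymphocytes, had 4 CDP-specific of 9 regions, with 8 and 8 peaks in CDP, 8 and 5 in WT MDP, and 3 and 3 in IRF8KO MDP. Lymphoid priming genes had 26.0% and 5.73%, led by Foxo1, Ikzf1 and Tcf12, each with a net of 8. At equal length the lymphoid priming shares were 17.6% and 13.1%, near those of all regions with a gene, and the net was 3 at each of these 3 genes. None of the B, T and NK cell markers with a start site had a promoter peak in CDP, whereas the T and NK list members Klrk1, Cd8a and Tcf7 had one.

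Genes of interferon response, pathogen sensing, cytokine receptors and adhesion had CDP-specific shares of 19.5% to 23.9%. Interferon response genes had 19.5% CDP-specific and 2.65% IRF8KO-specific regions, 22 and 3 of 113, and at equal length 15.8% and 7.37%. Gbp5, an interferon-induced GTPase, had 3 CDP-specific of 9 regions, with 9 and 9 peaks in CDP, 7 and 7 in WT MDP, and 6 and 6 in IRF8KO MDP. Trim30a had 3 of 7, and Eif2ak2, the RNA-sensing kinase PKR, 2 of 2 with 1 and 1 peaks in WT MDP and none in IRF8KO MDP. Pattern recognition genes had 23.1% and 5.44%. Tlr2, a receptor for bacterial lipoproteins, had 4 CDP-specific of 11 regions, all 4 in both WT MDP libraries, and Tlr1, its partner, 4 of 6. Cytokine and growth factor receptor genes had 23.4% and 4.32%, led by Kit, the stem cell factor receptor sorted on as CD117. Kit had 9 CDP-specific and 2 IRF8KO-specific of 20 regions, with 18 and 14 peaks in CDP, 12 and 12 in WT MDP, and 6 and 7 in IRF8KO MDP, although CDP were sorted for the lower CD117 level. Tgfbr2, a TGF-beta receptor chain, had 5 of 27. Chemokine receptor and adhesion genes had 23.9% and 7.01%. Ccr7, the receptor for migration to lymph nodes, had 6 CDP-specific of 12 regions but as many of either class at equal length, Ccr6 4 of 7, and the integrin chain gene Itga9 12 and 2 of 37, a net of 10 that was 2 at equal length. At equal length the shares were 20% and 11.9% for pattern recognition, 17.0% and 9.36% for cytokine receptor, and 18.7% and 13.2% for chemokine receptor and adhesion genes, so that the IRF8KO-specific shares were higher than with full lists and the adhesion list was near all regions with a gene.

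Lists of other lineages and of general functions had CDP-specific shares of 19.5% to 25.3% with full lists. At equal length the shares were 18.3% and 14.7% for stem cell, 17.9% and 12.8% for mast cell, basophil and eosinophil, 14.3% and 10.7% for erythroid, 11.1% and 7.94% for megakaryocyte, 17.7% and 10.1% for cell cycle and 13.8% and 10.3% for housekeeping genes, and the net of the stem cell list was 7 in place of 33. Stem cell genes had 23.4% CDP-specific and 8.56% IRF8KO-specific regions, with Prdm16, a regulator of stem cell maintenance, at 7 and 0 of 11 (4 and 1 at equal length) and Msi2, an RNA-binding protein, at 5 and 0 of 17. Mast cell, basophil and eosinophil genes had 25.3% and 8.08%, with Mitf at 7 and 3 of 28, a net of 4 that was -1 at equal length, and Ccr3, the eotaxin receptor, at 2 and 0 of 9. Erythroid genes had 19.7% and 7.58%, with Ank1 and Tfrc, a red cell ankyrin and the transferrin receptor, at a net of 3 each and Bcl2l1 at 2. Megakaryocyte genes had 21.4% and 4.29%, led by Fli1 with a net of 4 that was 0 at equal length, Vwf with 3 and Gp6 with 2. Cell cycle genes had 19.5% and 5.95%, led by Ccnd1 with 8 CDP-specific of 21 regions, Cdk6 with 9 and 4 of 37 and Ccnd3 with 3 of 13 (with genes within 20 kb the net was 0 at Ccnd1 and 10 in place of 25 over the list), and housekeeping genes 23.5% and 5.88%. The housekeeping genes Ywhaz, Actb and Eef1a1 had net numbers of 6, 2 and 2. A positive net with full lists was therefore not particular to dendritic genes, and 16 of the 20 lists had a net share above that of all regions with a gene.

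**Figure D5:**
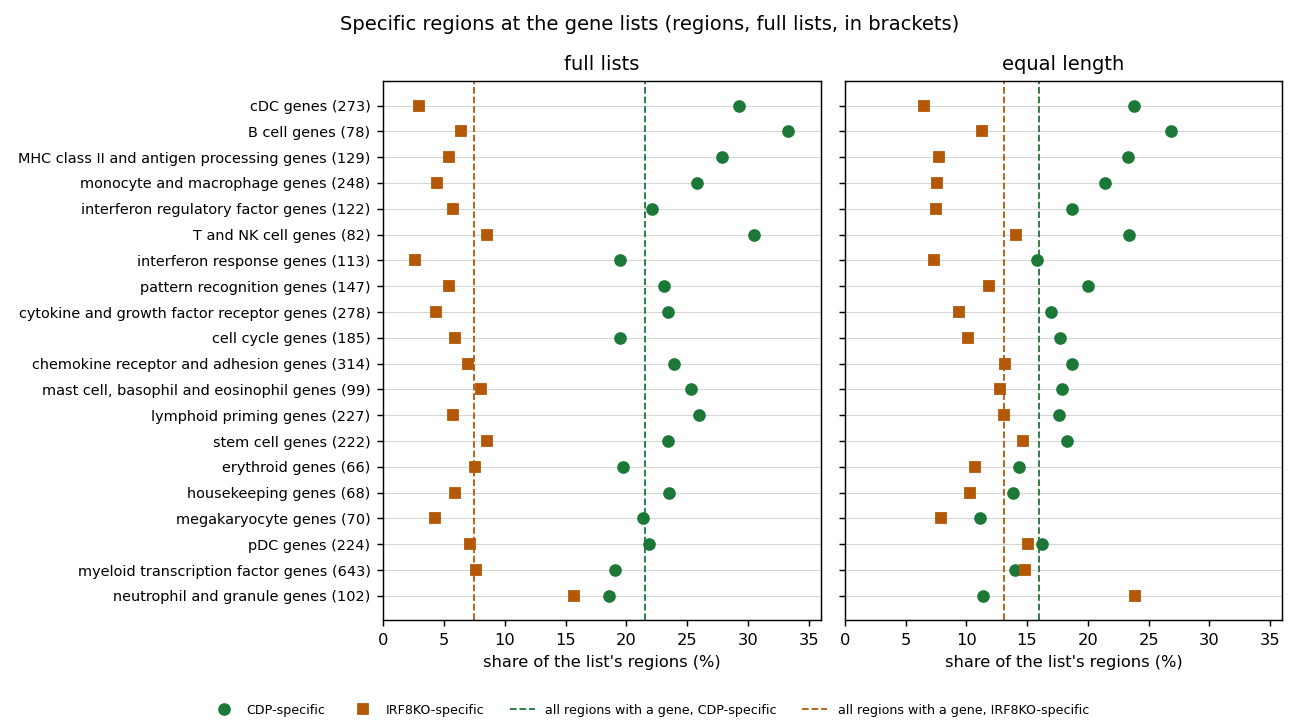
Share of each gene list's merged regions (x axis, percent) that were CDP-specific (circles) or IRF8KO-specific (squares) with full lists (left) and with lists cut to equal length (right), with dashed lines for all regions with a gene. The cDC genes lie apart from the dashed lines in both panels (29.3% and 2.93%, then 23.8% and 6.49%), and the neutrophil and granule genes change order (18.6% and 15.7%, then 11.4% and 23.9%).

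Across all promoter windows, motif shares were read for 369 CDP-specific and 122 IRF8KO-specific windows. The C/EBP motif TTGCNNAA stood in 18.9% of the IRF8KO-specific windows (interval 12.9 to 26.7), 8.67% of the CDP-specific windows (6.21 to 12), 10.2% of all 20885 distinct windows and 13.4% of windows without a peak in the 4 libraries. The AP-1 motif TGANTCA stood in 13.9% (8.89 to 21.2), 7.32% (5.08 to 10.4), 7.01% and 10.6% of these. The ETS-IRF composite GGAANNGAA stood in 9.84% of the IRF8KO-specific (5.72 to 16.4) and 10.6% of the CDP-specific windows (7.83 to 14.1), with 7.64% of all windows, so that its intervals in the 2 classes overlapped. The interferon response core GAAANNGAA stood in 7.38% (3.93 to 13.4) and 10.8% (8.06 to 14.4), with 8.07% of all windows. The PU.1-like ETS motif stood in 2.46% (0.84 to 6.98) and 5.15% (3.32 to 7.9), with 3.01% of all windows, and the Kruppel-like motif GGGNGTGG in 15.6% (10.2 to 23.0) and 23.6% (19.5 to 28.2), with 19.7%. In all, 9 motifs were searched, and for the other 3, which were AGATAA of GATA factors, TGTGGT of RUNX factors and the E-box CAGCTG, the intervals of the 2 classes overlapped. The C/EBP intervals of the 2 classes did not overlap, while that of the IRF8KO-specific class reached the share in windows without a peak. The classes also differed in base composition, with a median GC content of 55.8% in IRF8KO-specific and 58.3% in CDP-specific windows and 48.7% in windows without a peak, whose part in the motif shares was not tested. Since 1.75% of IRF8KO-specific and 1.78% of CDP-specific regions overlapped a promoter window, these shares say nothing of the motifs in most regions of either class, which were not analysed here.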

How the data were processed

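Each library came as a deposited peak list. Per the file headers, HOMER called peaks of 500 bp in each library by itself. It kept peaks at least 1000 bp apart with at least 4-fold local enrichment, used an FDR of 0.001 and counted at most 1 tag per bp. Bowtie 1.1.2, HOMER 4.9 and the build mm10 are named, per the submitters' processing notes. No source used here says whether reads were shifted for the transposase cut. In the deposited lists the score is 1 in every row, so it held no strength. Row position was used as rank, because the mean peak width falls from the top to the bottom of every list. The lists hold positions and no tag counts, so detection was compared.

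Peaks were merged and classified with Python 3.11.15, numpy 2.4.6 and pandas 2.3.3, and the procedure was tested on simulated peak lists. The simulated regions stood well apart, so the merging of chains of neighbouring peaks was not tested. Intervals are 95% Wilson intervals and cover counting error alone. With 2 libraries a group no single region was tested. Genes and start sites came from RefSeq tables of GRCm38.p6, and 485 of 488 list entries matched a gene. Coordinates are 1-based in mm10, and distances to a start use the nearest RefSeq start of the gene. The members and gene lists were chosen with earlier results of these data known. The named genes were the 10 with the most net regions in each direction, 14 fixed genes, the 3 leading members of each list, the genes at the 5 best-ranked regions of each class, and up to 5 list members of each class with a class-specific promoter. The other class-specific promoters are named to account for all of them, after their values were seen, and other exceptions are named as such. Some genes that the rule picked are not reported here.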

Additional observations from a re-analysis of the deposited data

How the results depend on the processing

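With every list cut to equal length, CDP-specific regions numbered 12029 and the share of IRF8KO-specific regions in both WT MDP lists was 33.1%. With the top 50% of each list the 2 classes held 10154 and 3675 regions. With the top 20000 rows they held 4431 and 3959, with 42.1% and 33.3% in both WT MDP lists. With peaks cut to their central 200 bp the shares were 39.3% and 35.9%, and with peaks merged within 1000 bp, an alternative chosen after seeing the data, the CDP-specific share was 45.1%. Leaving out each library in turn gave 21361 to 25973 CDP-specific and 7605 to 11004 IRF8KO-specific regions, the latter highest without IRF8KO MDP replicate 1, and shares in both WT MDP lists of 35.4% to 48.3% and 27.5% to 44.5%; fewer libraries were then asked for, so more regions met the definition. The net number of regions reversed for neutrophil and granule genes (-11 at equal length, and -5 to 7 leaving out each library in turn, lowest without IRF8KO MDP replicate 1), myeloid transcription factor genes (-4 at equal length), Mitf (-1 at equal length), Gata2 (1 without WT CDP replicate 2) and Zfp536 (-2 to 3, lowest without IRF8KO MDP replicate 2). Other net numbers moved in size: at equal length 18 of the 20 lists moved without reversing (pDC genes from 33 to 2, lymphoid priming genes from 46 to 8), as did 47 of 91 single genes, and with genes within 20 kb 4 lists (myeloid transcription factor genes from 74 to 39) and 19 genes moved. The cause of these changes was not tested. CDP-specific regions outnumbered IRF8KO-specific regions under every alternative run. The replicate differences of the 2 groups had a correlation of 0.00681 over 87259 regions, and so gave no sign that replicate numbers pair the libraries. A low correlation of peak calls cannot show that same-numbered libraries had no preparation in common. With the replicate block, an exact sign-flip test of the same-numbered pairs, the difference in peaks stayed 15043.5 with p = 0.5, the smallest that 2 pairs can give. The lower depth of the IRF8KO MDP libraries limits what an absent peak shows, and no tag counts were at hand to measure signal below the calling threshold.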
